A study of Homo sapiens with 4 samples.

Results

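The genes described here are 7 transcription factors that drive epithelial-mesenchymal transition (EMT), SNAI1, SNAI2, ZEB1, ZEB2, TWIST1, TWIST2 and PRRX1, and vimentin (VIM). They were chosen by name, 8 genes in all, and 7 of them were found by symbol among the 13165 genes of the deposited table, while PRRX1 was not listed. The study asked how innate immunity activator (INAVA, labelled under its older symbol C1orf106) acts in papillary thyroid cancer. RNA was sequenced from TPC1 cells, an established human papillary thyroid cancer line, as TPC1-Vector (empty vector) and TPC1-C1orf106 (vector expressing INAVA), with 2 libraries in each group. Both groups were selected with puromycin and grown in DMEM with fetal bovine serum, and each is a single stably selected line. Nothing in the sources says that the libraries of a group came from separate cultures.

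EMT is the passage of polarized, tightly joined epithelial cells to a loose and motile state. SNAIL, ZEB and TWIST proteins bind short DNA elements named E-boxes, and SNAIL and ZEB proteins repress genes of cell junctions such as E-cadherin. TWIST proteins are basic helix-loop-helix (bHLH) factors that bind DNA as dimers, and PRRX1 is a homeodomain factor. Vimentin, the main intermediate filament of mesenchymal cells, is the classical marker of the mesenchymal end of the transition and is also made by many cultured carcinoma lines.

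Levels are in FPKM, which counts sequenced fragments relative to transcript length and to the size of the library. The table holds a single value for each gene in each group, made from both libraries together, so no SD, standard error or test could be given and the number of reads is unknown. Differences are given as log2(FPKM + 0.5) in TPC1-C1orf106 minus the same in TPC1-Vector, which understates changes of weak genes. The comparison took in the 12305 genes whose mean over both groups reached 0.5 FPKM, and their median log2 fold change was 0.0033. INAVA itself, listed as C1orf106, measured 7.96 FPKM with the empty vector and 123 FPKM with the INAVA vector, 15.4 times higher. Of 8 thyroid lineage markers 3 were listed, with the thyroid factor PAX8 at 60.1 and 55.7 FPKM, FOXE1 at 5.26 and 5.89 FPKM and HHEX at 8.33 and 10.0 FPKM, vector value before INAVA value. Thyroglobulin (TG), TSHR, SLC5A5 and NKX2-1, which mark differentiated thyroid cells, were not listed. Of 10 markers of blood, vessel, stromal and liver cells 4 were listed, between 0.225 and 2.24 FPKM, with a sum of 3.57 FPKM for the vector and 3.05 FPKM for INAVA. The stromal marker PDGFRB was lower with INAVA (2.24 and 1.39 FPKM) and the erythroid HBB higher (0.645 and 1.20 FPKM), both under 1.5-fold with the added 0.5 used here and past it without (both picked after their values were seen). PTPRC, PECAM1, CDH5, CD3E, DCN and ALB, which define leukocytes, vessels, fibroblasts and hepatocytes, were not listed.

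The 6 factors that were listed were all weakly to moderately expressed in both groups, between 1.41 and 11.9 FPKM, and VIM was very strongly expressed. SNAI2 was the member with the largest difference, 1.45 times higher in TPC1-C1orf106, followed by SNAI1, 1.23 times higher. VIM, ZEB1 and TWIST1 each differed by under 5% between the groups, and ZEB2 and TWIST2 were somewhat lower in TPC1-C1orf106. In all, 3 members were higher and 4 lower, with a median log2 fold change of -0.028. No member reached a 2-fold difference, a size seen in 0.853% of all genes compared, with 0.61% higher and 0.244% lower. None of the 7 reached 1.5-fold either, against a background of 3.7% of all genes, 2.24% higher and 1.45% lower. With 7 genes and shares this small, a count of 0 does not set the members apart from other genes.

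**Figure D1:**
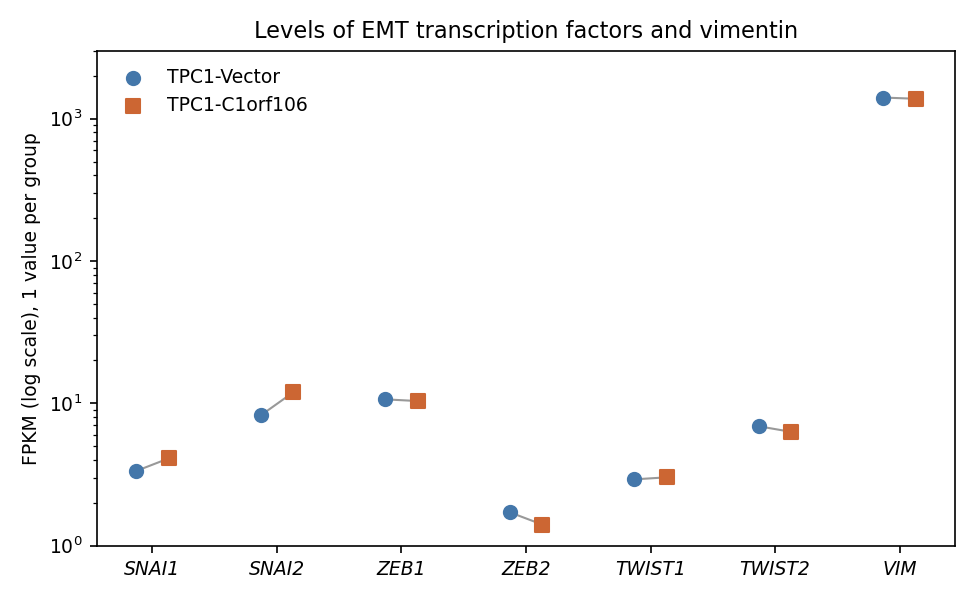
Levels of the 7 listed members in TPC1-Vector (circles) and TPC1-C1orf106 (squares), in FPKM on a log axis, 1 value per group and no error bars because the libraries of a group were combined. SNAI2 is at 8.23 and 11.9 FPKM, whereas VIM is at 1407 and 1380 FPKM, far above every factor.

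The SNAIL family showed the largest difference of the families. SNAI2, also named SLUG, a zinc finger repressor of junction genes, measured 8.23 FPKM with the empty vector and 11.9 FPKM with INAVA. Its log2 fold change was 0.51, and 363 of the 12305 genes (2.95%) had a higher one. Of the 4405 genes at a mean between 5 and 20 FPKM, the log2 fold change ran from -0.25 at the 10th percentile to 0.24 at the 90th, so SNAI2 lay above this range, and 1.54% of these genes were at least 1.5-fold higher. SNAI1, the founding SNAIL repressor of E-cadherin, measured 3.35 FPKM with the empty vector and 4.10 FPKM with INAVA. Its log2 fold change of 0.26 was exceeded by 1326 genes (10.8%), and lay between the 10th percentile (-0.33) and the 90th percentile (0.33) of the 2838 genes at a mean between 1 and 5 FPKM. Both family members were thus higher in TPC1-C1orf106, and only SNAI2 was outside the 10th to 90th percentiles of genes of like level. By definition a share of genes lies outside these percentiles, and SNAI2 itself did not reach 1.5-fold. The 2 values summed to 11.6 FPKM with the empty vector and 16.0 FPKM with INAVA, and SNAI2 was 2.46 and 2.91 times SNAI1, respectively.

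SNAI1 and SNAI2 differed in what their chromosomal neighbours did. SNAI1 lies on the forward strand of chromosome 20, and the deposited table places it at 49982975 to 49988883 (GRCh38). Of the 21 other genes with a deposited start within 1 Mb and an average of 1 FPKM or more, 18 were higher in TPC1-C1orf106. Their median log2 fold change was 0.36, with a range from -0.30 to 0.50. Some of them share a deposited start, such as ZNFX1 with ZFAS1 and TMEM189 with UBE2V1, so they are not all separate places. SNAI1 had a smaller difference than 14 of these 21 neighbours, and was 0.10 below their median on the log2 scale. Among them, CEBPB, an inflammatory and adipogenic transcription factor, was at 16.2 and 23.2 FPKM, and RNF114, a ubiquitin ligase next to SNAI1, was at 45.4 and 60.3 FPKM (both picked after their values were seen). SNAI2 lies on the reverse strand of chromosome 8, at 48917680 to 48921440. Only 2 such genes lay within 1 Mb of it, with log2 fold changes of -0.19 and -0.030, and the 5 genes within 2 Mb were all lower in TPC1-C1orf106, with a median of -0.10. SNAI1 thus lay within the range of its neighbours, and SNAI2 above all of its 5. The part of the neighbourhood in the SNAI1 value was not tested.

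**Figure D2:**
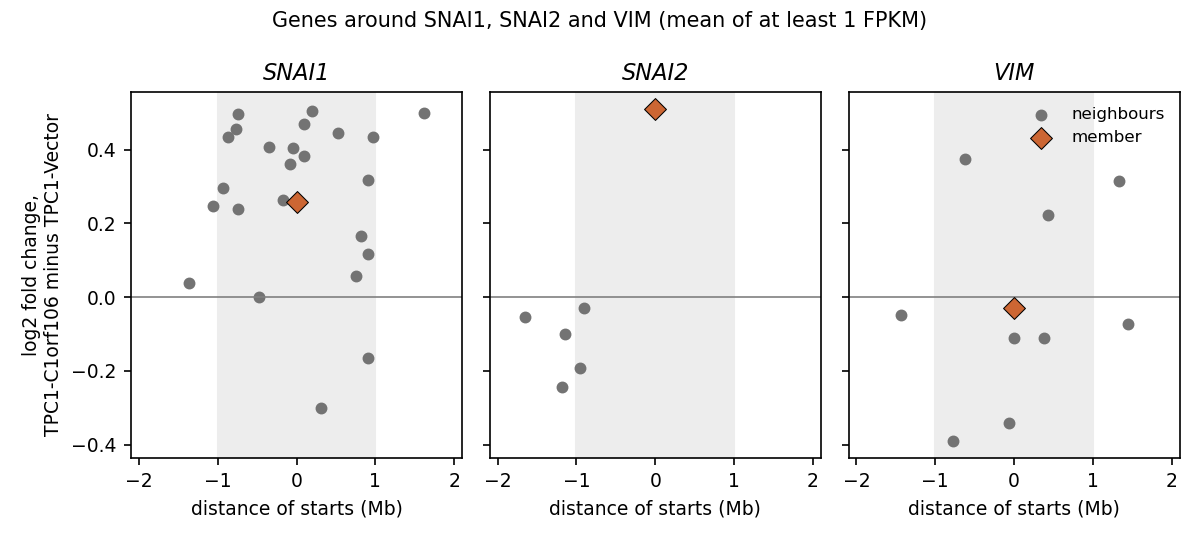
Log2 fold change (TPC1-C1orf106 minus TPC1-Vector) of genes averaging 1 FPKM or more against the distance of their start from that of SNAI1, SNAI2 or VIM, in Mb along the chromosome, with the member as a diamond at 0 and the window of 1 Mb shaded. Around SNAI1 18 of 21 genes in the window are above 0, while the neighbours of SNAI2 lie below 0 and SNAI2 at 0.51.

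The ZEB family showed little difference. ZEB1, a zinc finger and homeodomain repressor that forms a mutual inhibitory loop with the miR-200 family, measured 10.7 FPKM with the empty vector and 10.4 FPKM with INAVA. Its log2 fold change was -0.038, and 82.4% of the genes compared had a larger difference in either direction. ZEB2, its paralog with a like domain layout, was at 1.72 and 1.41 FPKM, a log2 fold change of -0.22, and had the lowest level of all members. ZEB1 was 6.22 times ZEB2 in TPC1-Vector and 7.37 times in TPC1-C1orf106. None of the 8 entries searched for miR-200 and miR-205 genes and their hosts was listed, and libraries of this kind do not measure mature miRNAs.

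In the TWIST family, TWIST2 was the more strongly expressed gene in both groups. TWIST2 measured 6.90 FPKM with the empty vector and 6.30 FPKM with INAVA, with a log2 fold change of -0.12. TWIST1 was at 2.92 and 3.02 FPKM, with a log2 fold change of 0.041. TWIST2 was 2.36 times TWIST1 in TPC1-Vector and 2.09 times in TPC1-C1orf106. The family sum was 9.82 and 9.32 FPKM. No stretch of 50 bases was shared between the annotated transcripts of TWIST1 and TWIST2, nor between any other pair of the 7 members.

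VIM measured 1407 FPKM with the empty vector and 1380 FPKM with INAVA, a log2 fold change of -0.028. By its mean it ranked 34 among the 13165 genes of the table. Of the genes compared, 87.0% had a larger difference in either direction. VIM lies on chromosome 10, on the forward strand, at 17228259 to 17237593 in GENCODE release 29, whereas the deposited entry spans 17214238 to 17237593. The longer span is shared with VIM-AS1, an antisense RNA that starts within VIM and was at 1.26 and 1.13 FPKM. No strand setting is given in the sources used here, so reads of VIM and VIM-AS1 cannot be told apart where they overlap. Of the 50-base stretches of VIM transcripts, 20.7% occurred, on either strand, in transcripts of other genes, among them VIM-AS1. ZEB1-AS1, the antisense partner of ZEB1, was at 1.63 and 1.81 FPKM, and the deposited spans of ZEB1 and ZEB1-AS1 do not overlap.

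**Figure D3:**
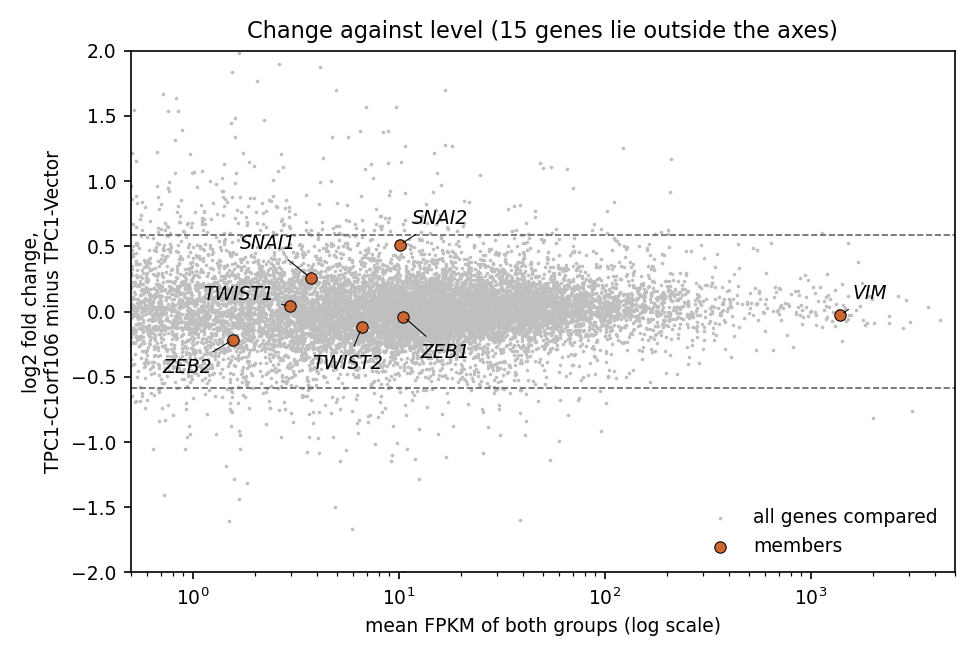
Log2 fold change (TPC1-C1orf106 minus TPC1-Vector) against the mean FPKM of both groups on a log axis, for the 12305 genes compared (grey) and the 7 members (orange), with 15 genes outside the axes and dashed lines at 1.5-fold. All members lie between the dashed lines, SNAI2 nearest to the upper one at 0.51, and VIM at the far right at -0.028.

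From the highest to the lowest level, the order in TPC1-Vector was VIM, ZEB1, SNAI2, TWIST2, SNAI1, TWIST1 and ZEB2. In TPC1-C1orf106 the order was the same except that SNAI2 stood above ZEB1. As FPKM values are scaled to transcript length they can be set side by side, but without a spread it cannot be said which neighbours in this order differ. The 6 factors summed to 33.8 FPKM with the empty vector and 37.1 FPKM with INAVA, 1.10 times as much. Of this sum, the SNAIL family made up 34.3% in TPC1-Vector and 43.2% in TPC1-C1orf106, the ZEB family 36.7% and 31.7%, and the TWIST family 29.1% and 25.1%. The levels of these RNAs are averages over cells, so more cells with a transcript and more transcript per cell cannot be told apart.

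The genes with the pattern nearest to a member were sought by Euclidean distance over the 2 group values on the log2(FPKM + 0.5) scale, which rests on 2 points per gene. Nearest to SNAI2 were RN7SL2 (8.57 and 11.8 FPKM), PVT1 (7.90 and 11.8 FPKM) and MARS2 (8.55 and 11.7 FPKM). Nearest to SNAI1 were SUSD6, DDX51 and THSD4 and to ZEB1 WBP4, BAG4 and CCDC71. TWIST1 was nearest to ST7L, MSL3P1 and LOC339803, and TWIST2 to AMBRA1, KIAA1804 and FBXL18. Nearest to VIM were the ribosomal protein genes RPL4 (1408 and 1399 FPKM) and RPL7A (1441 and 1385 FPKM) and the nucleolar gene NPM1 (1354 and 1368 FPKM). The distances were between 0.0028 and 0.062, the largest being those of SNAI2.

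Genes for proteins that work with the factors had RNA in both groups where they were listed. On the log2 scale used here, only ID4 among them was past 1.5-fold. All 15 co-repressors of SNAIL and ZEB proteins that were searched were listed, with a median log2 fold change of -0.040. None was past 1.5-fold, against 3.7% of all genes, so a count of 0 of 15 does not set them apart. The most strongly expressed were the histone deacetylase HDAC1 (64.0 and 62.0 FPKM) and CTBP1 (59.9 and 61.0 FPKM), through which ZEB proteins repress. CTBP2, the paralog of CTBP1, was at 44.1 and 34.0 FPKM (picked after its values were seen). Of the 15 ubiquitin ligases, proteases, kinases and phosphatases that set the stability of these proteins, none was past 1.5-fold either, against the same 3.7%. Their median was -0.060. PSMD14 was at 143 and 144 FPKM, and USP10 at 66.5 and 65.2 FPKM. RNA levels do not show how much SNAIL, ZEB or TWIST protein the cells held.

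Of 9 bHLH partners and inhibitors of TWIST proteins, 7 were listed and 5 were higher in TPC1-C1orf106, and the median of their log2 fold changes was 0.11. The inhibitors ID1 (101 and 132 FPKM) and ID2 (42.1 and 45.3 FPKM) were the most strongly expressed. ID3 was at 17.1 and 25.9 FPKM, a log2 fold change of 0.58 just under the 1.5-fold line, and the line was passed without the added 0.5 (ID3 was picked after its values were seen). ID4 was lower, at 3.55 and 2.01 FPKM, and was the 1 of 7 past 1.5-fold, against 1.45% of all genes lower by as much. Of 16 other transcription factors linked to EMT, 8 were listed, 4 higher and 4 lower, with a median of 0.027. None was past 1.5-fold, against 3.7% of all genes. FOXM1 was at 69.3 and 59.3 FPKM, ETS1 at 55.8 and 69.3 FPKM, and SOX9, picked after its values were seen, had a log2 fold change of -0.51.

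Among 19 genes of pathways that induce these factors, 18 were listed, 9 higher and 9 lower. The median of their log2 fold changes was 0.042, with the inhibitor SMAD7 counted among the 9 higher. The cytokine IL6 was the 1 of 18 past 1.5-fold, at 2.01 and 3.48 FPKM, against 2.24% of all genes higher by as much. With a pseudocount of 1 its log2 fold change was 0.58, under the line. The ligand TGFB1 was at 32.4 and 32.3 FPKM, its receptor TGFBR2 at 67.8 and 62.9 FPKM, and HIF1A, the hypoxia factor, at 75.6 and 82.5 FPKM. SMAD7, an inhibitor of the pathway and itself a target of it, was at 6.35 and 8.51 FPKM. TGFB1 and SMAD7 were picked after their values were seen.

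E-boxes of the sequence CAGGTG, the preferred element of SNAIL and ZEB proteins, were searched on both strands in RefSeq promoters (GRCh38.p14), from 250 bases before to 50 bases after each start. They were found for 6571 of 27305 genes (24.1%) in at least 1 window. Of the 12 listed epithelial genes 8 had a promoter in this set, and 6 of the 8 held the element, OCLN, TJP1, CRB3, PATJ, JUP and MUC1. The other two, CLDN1 and KRT8, held none within their windows, which says only that these letters are not there. Of 12 mesenchymal genes with a promoter 3 held it. Counted by window, the element was in 57.1% of 14 epithelial, 22.2% of 18 mesenchymal and 20.6% of all 35116 windows. The epithelial genes were chosen as genes repressed in EMT, so their share is no test of it. Only 5 of the 8 members were in this search, without SNAI1, SNAI2 and TWIST1. ZEB1 held the element in at least 1 of its windows, and PRRX1, ZEB2, TWIST2 and VIM did not. For 5 of the epithelial genes and for ZEB1, 1 site each is shown, as elements of the kind that SNAIL and ZEB proteins bind. Capitals mark 1 E-box in each line, read 5′ to 3′ on the strand of the gene, where CACCTG is the same element on the other strand.

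Counted from a RefSeq start, the element shown for OCLN begins 33 bases upstream (chr5:69492502-69492531, forward strand), that of PATJ 30 bases (chr1:61742438-61742467, forward), that of TJP1 88 bases (chr15:29969120-29969149, reverse) and that of JUP 43 bases (chr17:41786002-41786031, reverse). The lines of JUP and MUC1 (chr1:155192973-155193002, reverse) each hold another CACCTG in lower case, farther from the start. OCLN, PATJ and ZEB1 have further elements in their windows that are not shown, and the ZEB1 element shown begins 57 bases before 1 of its starts (chr10:31318348-31318377, forward).
OCLN: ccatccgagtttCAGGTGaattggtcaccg
PATJ: gggagggcctgcCAGGTGaggcgcggtcac
TJP1: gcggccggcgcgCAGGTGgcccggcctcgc
JUP: ccacctgccgagCAGGTGagcgcacggagt
MUC1: tttgtcacctgtCACCTGctccggctgtgc
ZEB1: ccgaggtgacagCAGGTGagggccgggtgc

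The epithelial genes searched as repressed in EMT were mostly weak or not listed. Whether SNAIL or ZEB proteins repress each of them was not tested. Of 26 searched, 12 were listed and 11 were compared, 2 higher and 9 lower in TPC1-C1orf106, with a median log2 fold change of -0.20 beside 0.0033 over all genes. E-cadherin (CDH1), EPCAM and ESRP1 were among the 14 not listed. The tight junction gene CLDN1 was at 84.2 and 48.5 FPKM, a log2 fold change of -0.79. The keratin KRT8 was at 23.4 and 10.5 FPKM, a log2 fold change of -1.12, while its filament partner KRT18 was at 140 and 212 FPKM, a log2 fold change of 0.59. These 3 genes were those past 1.5-fold, 1 higher and 2 lower of 11, against 2.24% and 1.45% of all genes. The list was chosen with earlier results of these data known, so these shares are no test of it. Under quantile normalization KRT18 was at 0.52, below the 1.5-fold line, which leaves 0 higher. KRT8 was the 1 gene past 2-fold. Of the genes with the E-box sites above, OCLN was at 1.56 and 1.79 FPKM, JUP at 9.63 and 7.34 FPKM, MUC1 at 1.63 and 1.48 FPKM, and PATJ, listed as INADL, at 3.31 and 2.13 FPKM. TJP1 had a log2 fold change of -0.061 (these 5 genes are given for their sites, whatever their values). OCLN was higher and the rest were lower in TPC1-C1orf106, and none was past 1.5-fold, although PATJ was at -0.64, past it, without the added 0.5. CRB3, which held the element but has no site shown, was also lower, at 0.689 and 0.563 FPKM.

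The mesenchymal genes differed in both directions, with VIM at a log2 fold change of -0.028. Of 22 searched, 15 were listed and compared, 9 higher and 6 lower, with a median log2 fold change of 0.32 beside 0.0033 over all genes. At least 1.5-fold higher were TAGLN, an actin-binding protein of smooth muscle (3.55 and 22.5 FPKM), FN1, which encodes fibronectin (144 and 272 FPKM), the matrix glycoprotein TNC (8.02 and 13.3 FPKM) and smooth muscle actin ACTA2 (5.18 and 8.28 FPKM). At least 1.5-fold lower were S100A4, a calcium-binding protein also named FSP1 (8.42 and 4.18 FPKM), and the proteoglycan VCAN (92.1 and 58.0 FPKM). SPARC, a matrix protein, was at 134 and 186 FPKM, and N-cadherin (CDH2), the cadherin that replaces E-cadherin in EMT, at 14.4 and 13.1 FPKM (CDH2 picked after its values were seen). That makes 4 of 15 higher and 2 of 15 lower, against the same background shares. Like the other lists, this one was chosen with earlier results of these data known, so the shares are no test of it. It also has no replicate check.

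**Figure D4:**
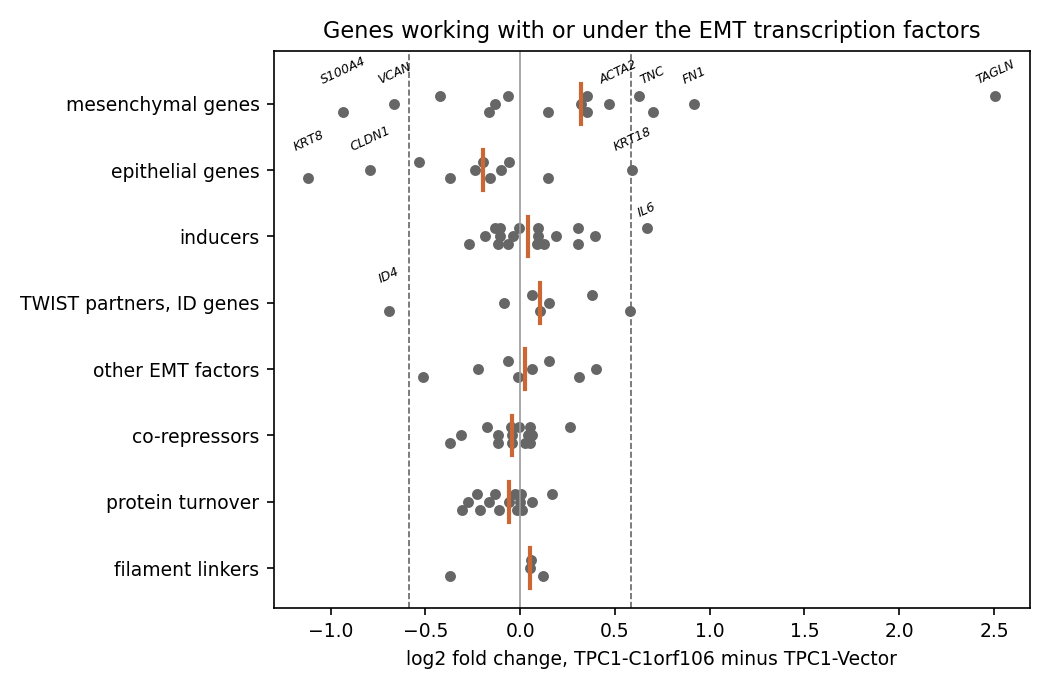
Log2 fold change (TPC1-C1orf106 minus TPC1-Vector) of the genes in 8 lists, 1 point per gene compared, with the list median as an orange bar, dashed lines at 1.5-fold and names for genes past it. The mesenchymal and epithelial lists spread widest, from -0.93 to 2.51 and from -1.12 to 0.59. The co-repressors and protein turnover genes stay inside the lines, and 3.7% of all genes compared lie outside them.

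Of 9 genes searched for other intermediate filament proteins and for linkers, 4 were listed. None was past 1.5-fold, against 3.7% of all genes. FLNA, an actin cross-linker that binds vimentin, was at 452 and 471 FPKM, the nuclear intermediate filament gene LMNA at 400.0 and 414 FPKM, and the linker DST at 20.4 and 22.2 FPKM. Synemin (SYNM), which joins vimentin in mixed filaments, was at 4.77 and 3.57 FPKM, the largest difference of the 4 on the log2 scale at -0.37. DST and SYNM are given so that all 4 listed genes are shown. DES, GFAP, PRPH, NES and PLEC were not listed.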

How the data were processed

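RNA of TPC1-Vector and TPC1-C1orf106 cells was sequenced in 2 libraries per group. The values are FPKM as deposited, a single one for each gene in each group, with positions on hg38. The labels name another library kit and sequencer than the study's methods. The submitters' processing notes name CASAVA, Cufflinks 2.1.1 and Cuffdiff, and the aligner and annotation are not given in the sources used here. The table also holds the authors' own log2 ratios, directions, p-values and q-values, which were not used. Depth per library is unknown, and no count, interval or test could be derived.

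Members were matched by symbol, list genes also by older symbols. Members and lists were chosen with earlier results of these data known. Fold changes were differences of log2(FPKM + 0.5) for genes averaging 0.5 FPKM or more, and a gene was called past 2-fold or 1.5-fold. From each list, genes past 1.5-fold at 1 FPKM or more in the higher group and the 2 strongest were named, with other picks marked in the text. Neighbours were genes with deposited starts within 1 Mb, averaging 1 FPKM or more, and some share a start. Stretches of 50 bases were compared over GENCODE release 29 transcripts. Alternatives were pseudocounts of 0.1, 1 and none, no filter, a minimum mean of 1 FPKM, median-of-ratios scaling, quantile normalization, a window of 2 Mb and subtraction of the neighbours' median. Scripts were tested on simulated data. Python 3.11.15, numpy 2.4.6, pandas 2.3.3 and matplotlib 3.10.9 were used. The genes nearest to ZEB2 in pattern and 1 thyroid marker are not reported here.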

Additional observations from a re-analysis of the deposited data

How the results depend on the processing

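No paired analysis was possible because each group has a single combined value, and for the same reason no library could be left out. Under pseudocounts, median-of-ratios scaling and quantile normalization, the 7 members kept their direction and 0 were past 1.5-fold, with SNAI2 between 0.49 and 0.54 and SNAI1 between 0.23 and 0.29 on the log2 scale. After subtraction of the median of the genes within 1 Mb, SNAI1 was at -0.10, TWIST1 at -0.13 and VIM at 0.081, each with the other sign, and SNAI2 was at 0.62, past 1.5-fold. This subtraction rests on 1 neighbour for TWIST1 and 2 for SNAI2. The median around ZEB1 was -0.027 with a window of 2 Mb, against 0.052. The counts past 2-fold, 75 higher and 30 lower, were 121 and 58 with a pseudocount of 0.1, and 154 and 70 with none, a choice made after seeing the data, and those at least 1.5-fold lower, 179, were 289 and 331, because the pseudocount shrinks weak genes. KRT18 and IL6 were at 0.52 and 0.58 at the lowest, under the 1.5-fold line, ID3, PATJ and COL1A1 reached 0.59, -0.64 and -0.72 past it, and CTBP1 and PSMD14 changed sign under quantile normalization, at -0.0074 and -0.056. Without reads or replicates, no difference of a member or list gene can be told from noise. This holds for SNAI2 and SNAI1 as well as for weak genes such as ZEB2 and TWIST1.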
